A study of Mus musculus with 6 samples.

Results

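The 32 genes described here encode the enzymes and regulators with which a cell makes sterols and fatty acids. They comprise 20 sterol genes, from the first step of the mevalonate pathway to the last reductions of the sterol ring with their regulators. The 12 fatty acid genes supply acetyl-CoA, build and elongate the chain, desaturate it and activate it. They were chosen by name from the pathway, with earlier results of these data known, and all 32 were among the 14338 genes listed in all 6 libraries once mitochondrial and ribosomal genes had been set aside. Single-cell RNA-seq had been performed on the mucosal layer of the bladder of wild-type C57BL/6 mice, 8 weeks old, under 3 conditions with 2 libraries each. Healthy mice received no drug. Acute injury was sampled 48 hours after cyclophosphamide (CPP), and chronic injury after 4 rounds of CPP, on day 11. The study's methods place the chronic harvest 48 hours after the final dose as well. They give a lower dose per injection for chronic than for acute injury. CPP is a chemotherapeutic drug whose metabolites reach the urine and damage the urothelium, the stratified epithelium that lines the bladder. The study's methods give more mice than libraries per condition, so a library stands for pooled animals.

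Cholesterol is made from acetyl-CoA through mevalonate, farnesyl diphosphate, squalene and lanosterol, and fatty acids are made from the same acetyl-CoA through malonyl-CoA. The transcription factor SREBP2 (encoded by Srebf2) is known chiefly for driving the sterol genes and SREBP1 (encoded by Srebf1) for driving the fatty acid genes. Insig1 holds their escort protein in the endoplasmic reticulum when sterols are plentiful. Superficial (umbrella) cells of the urothelium cover their apical surface with membrane plaques of uroplakins and exchange much of that membrane as the bladder fills and empties.

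Promoter sequences were available from RefSeq for 25 of the 32 genes. Within the 250 bases upstream of a start site, a CCAAT box (CCAAT, searched on either strand), which nuclear factor Y binds, was found for 15 of 16 sterol genes with a sequence and for 4 of 9 fatty acid genes, against 37.5% of 26734 genes. Acat2 was the sterol gene without a match. The GC box (GGGCGG, either strand), bound by Sp factors, was found for 15 of the 16 sterol genes and 6 of the 9 fatty acid genes, against 35.6% of all genes. The 9-base sterol response element in the form TCACNCCAC was found for 1 of the 16 sterol genes, Hmgcs1, and 0 of the 9 fatty acid genes, against 1.22% of all genes, which says only that these letters were in no other window. The 4 windows shown are examples, the bases next upstream of the RefSeq start (GRCm38.p6) for 4 enzymes of the early and late pathway. The sterol response element and CCAAT matches are in capitals (ATTGG is CCAAT on the other strand). Hmgcs1 is at chr13:119690201-119690350 on the plus strand, Mvk at chr5:114444149-114444268 on the plus strand, Mvd at chr8:122443423-122443542 on the minus strand and Nsdhl at chrX:72918401-72918520 on the plus strand, all upstream of the annotated gene.
Hmgcs1: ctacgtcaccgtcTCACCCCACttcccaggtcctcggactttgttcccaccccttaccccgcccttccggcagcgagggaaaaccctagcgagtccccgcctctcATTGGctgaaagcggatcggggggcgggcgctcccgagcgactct
Mvk: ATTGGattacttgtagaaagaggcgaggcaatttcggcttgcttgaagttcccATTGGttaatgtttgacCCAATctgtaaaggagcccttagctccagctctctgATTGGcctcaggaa
Mvd: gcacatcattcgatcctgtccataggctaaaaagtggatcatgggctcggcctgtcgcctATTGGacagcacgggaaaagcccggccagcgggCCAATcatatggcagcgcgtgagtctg
Nsdhl: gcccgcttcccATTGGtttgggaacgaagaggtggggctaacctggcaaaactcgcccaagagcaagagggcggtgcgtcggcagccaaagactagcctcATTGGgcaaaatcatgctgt
Within these shorter stretches, Hmgcs1 held the sterol response element and 1 CCAAT box, Mvk 4 CCAAT boxes, and Mvd and Nsdhl 2 each.

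The libraries held 5348 to 15062 cell barcodes and 54604109 to 111985678 unique molecular identifiers (UMIs, each standing for 1 captured RNA molecule). The median UMIs in a cell lay between 5530 and 9138 over the libraries. Any pair of libraries shared 36 to 229 barcode sequences. Healthy library 1 and acute library 1 stood apart, with 15213 and 15065 genes listed against 17764 to 20180 in the others. The study's methods say that libraries were handled in batches but the labels do not assign them, so batch and condition cannot be told apart. After filters on cells, 55398 cells were clustered without any of the 32 genes among the features. Once called doublets and doublet-rich clusters had been removed, 50198 cells were kept. Urothelial cells formed a superficial class (3304 cells, the sub-cluster with high Krt20 and uroplakins) and, split cell by cell by the larger of a basal and a luminal marker score, a basal class (3766 cells) and an intermediate class (26679 cells). Cells that scored high for cell cycle genes were set apart as cycling basal (1109 cells) and cycling luminal (3271 cells). The basal and luminal classes are ranges on a score, with 5.01% of urothelial cells within 0.1 of the boundary. The defining markers followed the names, since the 5 superficial markers summed to 18329 to 27914 CPM in superficial, 6427 to 11678 CPM in intermediate and 1658 to 3343 CPM in basal cells. The stromal classes were fibroblasts (5572 cells) and myofibroblasts (4420 cells). Every level below is in CPM, the share of a gene in the UMIs of that class in that library over the 14338 genes, scaled to a total of 1e+06 UMIs with TMM factors. Every test was made over libraries, not cells. Within bulk sums of this kind, fewer expressing cells and fewer molecules per cell cannot be told apart.

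The first question was how sterol and fatty acid synthesis genes vary over the layers of the urothelium. Sterol genes stepped up from basal to intermediate to superficial cells. Of the 20, 15 were higher and 0 lower in intermediate than in basal cells (19.7% of the 11403 genes tested were called higher and 16.4% lower), 18 were higher and 1 lower in superficial than in intermediate cells (24.3% and 29.4% of all genes), and 19 were higher and 1 lower in superficial than in basal cells (30.8% and 31.4%). Their median log2 fold change was 0.51, 1.00 and 1.45 in these 3 comparisons, beside 0.02, -0.03 and 0.00 for all genes. Fatty acid genes divided, with 5 higher and 1 lower, 6 higher and 4 lower, and 6 higher and 3 lower of 12, and medians of 0.12, 0.31 and 0.49. A gene was called at an adjusted p (edgeR quasi-likelihood test, library as block, Benjamini-Hochberg over all genes tested) below 0.05.

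Among the early enzymes, Fdps, which makes farnesyl diphosphate, showed the widest span. Its level ran from 25.5 to 68.6 CPM over the 6 libraries in basal cells (median 33.2), from 76.97 to 127 in intermediate cells (median 87.5) and from 228 to 323 in superficial cells (median 260). The 3 ranges did not overlap, and the log2 fold change from basal to superficial was 2.90 ± 0.13 (SE, n = 6, adjusted p 2.72e-19), which is 7.45-fold. The gene lies at chr3:89093588-89101959 on the minus strand of mm10. Mvd, which makes isopentenyl diphosphate, stood at 13.4 to 26.4 CPM (median 18.2) in basal, 32.9 to 45.0 (median 38.5) in intermediate and 72.5 to 105 (median 85.0) in superficial cells, a log2 fold change of 2.20 ± 0.11. Mvk, the mevalonate kinase, also had 3 ranges apart, 19.1 to 36.9 CPM, 37.0 to 44.2 and 56.0 to 93.0, with a log2 fold change of 1.65 ± 0.11. The steps before and beside them also rose from basal to superficial, by 2.00 ± 0.15 on the log2 scale for Acat2 (acetoacetyl-CoA thiolase), 1.36 ± 0.12 for Pmvk (phosphomevalonate kinase) and 1.64 ± 0.16 for Idi1 (isopentenyl diphosphate isomerase). Hmgcs1, which makes HMG-CoA, stood apart from these genes in its course. It measured 60.7 to 157 CPM (median 106) in basal and 80.0 to 156 (median 113) in intermediate cells, with a log2 difference of -0.01 ± 0.14 (adjusted p 0.978). In superficial cells it measured 123 to 275 CPM (median 189), 0.83 ± 0.14 above basal on the log2 scale.

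The enzymes that commit to sterols and finish the ring rose likewise. Nsdhl, a dehydrogenase that helps to remove the methyl groups of lanosterol, measured 8.39 to 16.5 CPM (median 10.3) in basal, 18.6 to 28.4 (median 24.3) in intermediate and 52.0 to 79.7 (median 66.2) in superficial cells, a log2 fold change of 2.49 ± 0.14 (adjusted p 5.76e-17). Dhcr7, a last reductase of cholesterol synthesis, went from 12.4 to 29.0 CPM in basal to 38.7 to 77.04 in superficial cells, a log2 fold change of 1.92 ± 0.13. For both genes every superficial library lay above every basal library. The other 8 rose from basal to superficial cells by 1.58 ± 0.10 for Fdft1 (squalene synthase), 1.21 ± 0.14 for Sqle (squalene epoxidase), 1.61 ± 0.16 for Lss (lanosterol synthase), 1.45 ± 0.15 for Cyp51 (lanosterol demethylase), 1.10 ± 0.13 for Msmo1 (sterol methyl oxidase), 1.32 ± 0.14 for Hsd17b7 (ketosteroid reductase), 1.13 ± 0.11 for Ebp (sterol isomerase) and 1.38 ± 0.12 for Sc5d (sterol desaturase). Not every step was called between basal and intermediate cells, where Msmo1 (0.24 ± 0.12, adjusted p 0.129) and Hsd17b7 (0.31 ± 0.14, adjusted p 0.0883) missed the threshold, although Msmo1 was called without healthy library 1 (0.32, adjusted p 0.0132). The calls of Cyp51, Idi1, Lss and Pmvk in that comparison were lost without acute library 1 (adjusted p 0.0799, 0.0523, 0.112 and 0.0543), and those of Cyp51 and Lss without healthy library 2 as well (0.0524 and 0.101). Lss lost its call without acute library 2 and without chronic library 2 too (0.125 and 0.0829).

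**Figure D1:**
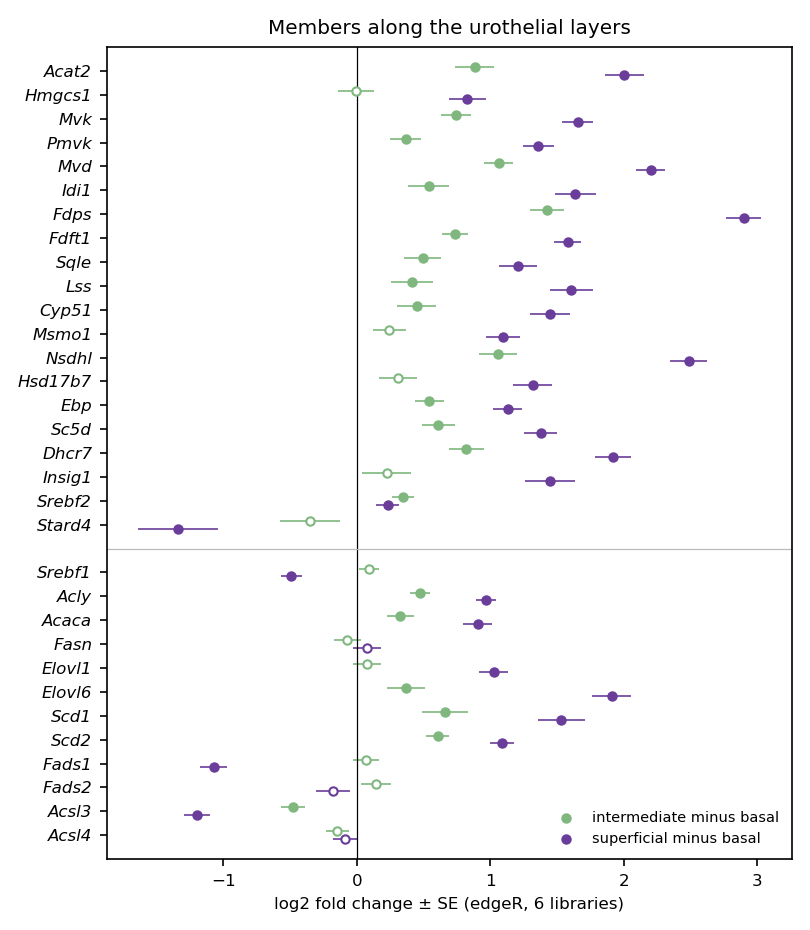
Log2 fold change with its SE (x axis) of each of the 32 members (y axis, 20 sterol genes above, 12 fatty acid genes below) for intermediate minus basal (green) and superficial minus basal cells (purple), from the edgeR fit over 6 libraries. Filled points have an adjusted p below 0.05. The purple points of the sterol genes lie from -1.34 (Stard4) to 2.90 (Fdps), and those of the fatty acid genes fall on either side of 0.

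Among the sterol genes that encode no enzyme, Insig1 rose, Srebf2 rose by less and Stard4 was lower. Insig1, a target of SREBP2 as well as its brake, measured 13.3 to 39.995 CPM in basal, 16.7 to 49.2 in intermediate and 48.97 to 119 in superficial cells. Its rise of 1.45 ± 0.19 from basal to superficial cells came with an uncalled 0.22 ± 0.18 between basal and intermediate cells (adjusted p 0.367). Srebf2 itself stood at 73.9 to 148 CPM (median 96.3), 111 to 160 (median 128) and 96.7 to 153 (median 123) in the 3 layers, ranges that overlapped throughout. Srebf2 was called higher in intermediate than in basal cells (0.34 ± 0.08, adjusted p 0.00139). Its difference of 0.23 ± 0.09 between superficial and basal cells was called (adjusted p 0.021) but lost without acute library 2 (0.18, adjusted p 0.116). Stard4, which moves cholesterol between membranes inside the cell, was low in every layer and ran the other way, at 2.098 to 11.1 CPM (median 5.26) in basal and 1.31 to 2.94 (median 1.89) in superficial cells, where it was lower by a log2 fold change of -1.34 ± 0.30 (adjusted p 0.000229). Its smaller difference between intermediate and basal cells (-0.35 ± 0.23) was called without acute library 1 (-0.62, adjusted p 0.0323).

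Taken gene by gene and library by library, 13 of the 20 sterol genes rose from basal to intermediate and again from intermediate to superficial cells in each of the 6 libraries, and 0 fell at both steps in each. The share of all genes with this order is not given, so the count cannot be set against it. For 17 of the 20 sterol genes all 6 superficial values lay above all 6 basal values (11.2% of all genes). The mean of log2(CPM + 1) over the sterol genes was 4.89 ± 0.21 (SD, n = 6) in basal, 5.44 ± 0.22 in intermediate and 6.29 ± 0.17 in superficial cells, and it rose at each step in 6 of 6 libraries, healthy and injured alike. Among the 14 urothelial sub-clusters, the superficial sub-cluster had the highest median of this mean over libraries, 6.19, and a cycling sub-cluster that also carried superficial markers came next, 5.80 (over the 4 libraries with enough cells). The lowest were a cycling sub-cluster rich in basal cells, 4.65, and the main basal sub-cluster, 4.88. Of the non-cycling layers, superficial cells were also the most deeply sampled, with a median of 9932 to 21543 UMIs per cell against 3908 to 8474 in basal cells. The cycling sub-cluster with superficial markers was sampled more deeply still. Its cells had a median of 2.5 times the median UMIs of their library, against 1.92 in the superficial sub-cluster. The part of these differences in depth in the results was not tested.

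**Figure D2:**
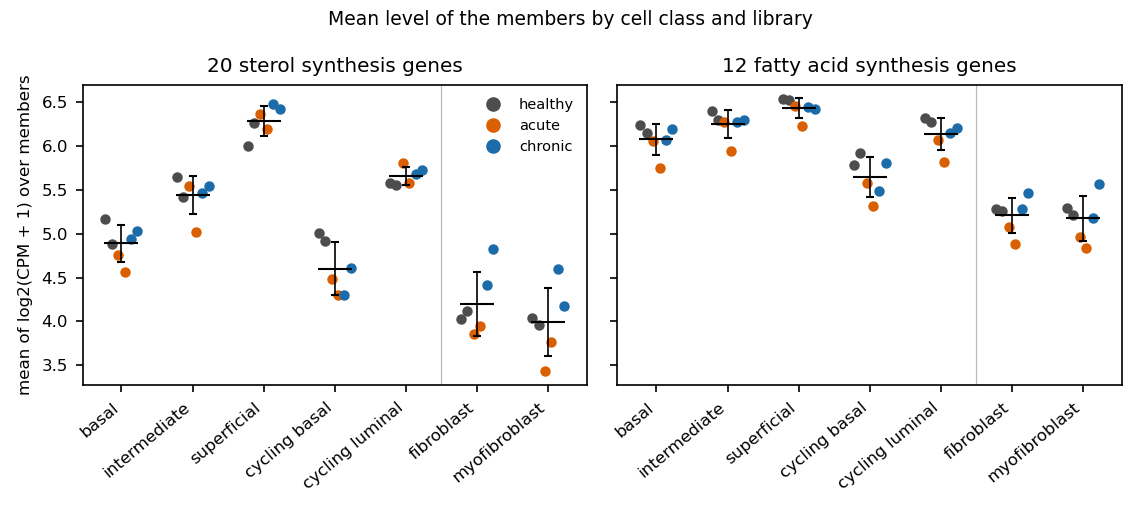
Mean of log2(CPM + 1) over the 20 sterol genes (left) and the 12 fatty acid genes (right) in 7 cell classes, with 1 point per library coloured by condition and a bar with the mean and SD over the 6 libraries. The sterol mean climbs from 4.89 in basal to 6.29 in superficial cells and lies at 4.2 and 3.99 in the stromal classes, and the fatty acid mean spans 5.18 to 6.44 over the same classes.

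The fatty acid genes that rose supply acetyl-CoA and malonyl-CoA, lengthen chains or put in the first double bond. Elovl6, which elongates palmitate to stearate, measured 35.8 to 71.5 CPM (median 50.1) in basal, 50.1 to 85.4 (median 69.9) in intermediate and 131 to 241 (median 196) in superficial cells. Its log2 fold change from basal to superficial cells was 1.91 ± 0.15 (adjusted p 1.65e-13). Its smaller step between basal and intermediate cells (0.37 ± 0.14, adjusted p 0.0429) lost its call in 10 of the alternatives, including 5 of the 6 that left out a library (adjusted p 0.0505 to 0.137, all but the one without healthy library 1). Scd2, a stearoyl-CoA desaturase, measured 153 to 306 CPM in basal and 373 to 595 CPM in superficial cells, 1.09 ± 0.09 higher on the log2 scale, and its relative Scd1, at 4.64 to 15.8 and 14.5 to 25.1 CPM, was 1.53 ± 0.18 higher. Acly, which makes cytosolic acetyl-CoA from citrate, rose by 0.97 ± 0.07, Acaca, which makes malonyl-CoA, by 0.90 ± 0.11, and Elovl1, which elongates very long chains, by 1.03 ± 0.11.

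Fasn, the fatty acid synthase that stands between Acaca and Elovl6, measured 45.2 to 81.4 CPM (median 73.4) in basal, 46.8 to 75.5 (median 66.3) in intermediate and 61.3 to 87.7 (median 68.5) in superficial cells, ranges that overlapped. Its log2 difference from basal to superficial cells was 0.07 ± 0.11 (adjusted p 0.565). The genes for polyunsaturated chains and acyl-CoA synthesis were level or lower. Fads1, a desaturase of polyunsaturated chains, fell from 131 to 214 CPM (median 158) in basal to 59.9 to 137 (median 62.4) in superficial cells, a log2 fold change of -1.07 ± 0.10, while its neighbour Fads2 differed by -0.18 ± 0.13 (adjusted p 0.223). Between superficial and intermediate cells Fads2 was called lower (-0.32 ± 0.10, adjusted p 0.00788), a call lost without either chronic library (adjusted p 0.123 and 0.0749), and Fasn was called higher without acute library 1 alone (0.25, adjusted p 0.0398). Acsl3, an acyl-CoA synthetase of lipid droplets, fell from 138 to 356 CPM (median 249) to 78.5 to 178 (median 98.3), by -1.20 ± 0.10, and did so in order over the 3 layers in 6 of 6 libraries, whereas Acsl4 differed by -0.09 ± 0.09. Srebf1 was lower in superficial cells by -0.49 ± 0.08, with 80.2 to 114 CPM against 117 to 172 in basal cells. The fatty acid mean of log2(CPM + 1) rose from 6.08 ± 0.18 to 6.25 ± 0.16 and 6.44 ± 0.11 over the layers, in 6 of 6 libraries at each step. By sub-cluster, the superficial one ranked 3 in the median of this mean, 6.35, below sub-clusters of mostly intermediate cells at 6.38 and 6.36. The cycling sub-cluster with superficial markers ranked 13 of 14, at 6.00. Sub-cluster values here and above are from CPM without TMM factors.

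**Figure D3:**
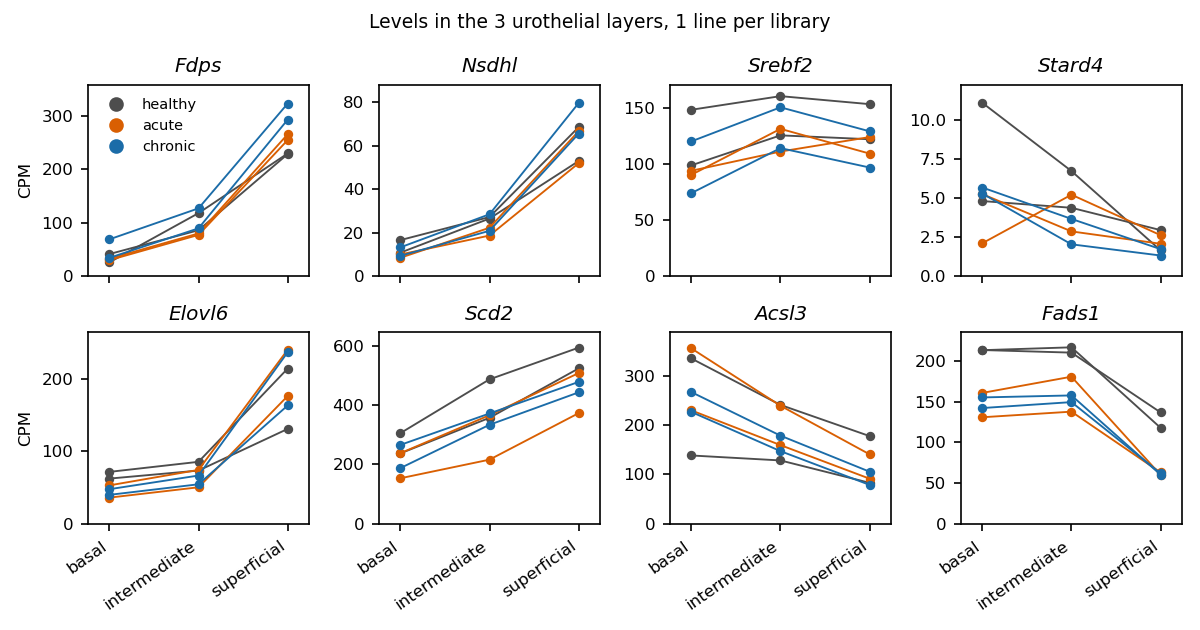
CPM (y axis, from 0) in basal, intermediate and superficial cells (x axis) of 8 members, with 1 line per library coloured by condition. Fdps, Nsdhl, Elovl6 and Scd2 climb in all 6 libraries, Acsl3 falls in all 6, Srebf2 stays within overlapping ranges, and Fads1 in superficial cells is at 118 and 137 CPM in the healthy libraries and from 59.9 to 63.0 in the 4 injured ones.

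Other genes of the same pathways, from lists fixed by pathway with earlier results of these data known, gave mixed counts from basal to superficial cells, where 30.8% of all genes were called higher and 31.4% lower. Of 15 further sterol pathway genes tested, 6 were higher and 7 lower, and of 10 genes of sterol uptake, storage and efflux 5 and 3. Of 13 further fatty acid synthesis genes 10 were higher and 3 lower, of 8 glycerolipid synthesis genes 4 and 3, and of 11 fatty acid oxidation genes 4 and 6. Tm7sf2, a sterol reductase that acts on the lanosterol ring, had the largest difference, from 2.69 to 10.6 CPM in basal to 36.3 to 53.8 in superficial cells (log2 fold change 3.36 ± 0.17, adjusted p 5.21e-18). Aacs, which makes acetoacetyl-CoA from ketone bodies, rose by 2.28 ± 0.16 and Acss2, which makes acetyl-CoA from acetate, by 1.93 ± 0.14. Abcg1, a sterol exporter, was 1.34 ± 0.16 higher in intermediate than in basal cells, and Vldlr, a lipoprotein receptor, 0.95 ± 0.11 higher in superficial than in intermediate cells.

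Markers of other cell types moved with the layers as well. Of 5 adipocyte markers 2 were listed in all libraries (Fabp4 and Cidec), and they summed to 63.2 to 525 CPM in basal, 81.4 to 796 in intermediate and 814 to 3082 in superficial cells. Nearly all of this was Fabp4, a fatty acid binding protein, at 813 to 3082 CPM in superficial cells, where Cidec, a lipid droplet protein of adipocytes, reached at most 1.17 CPM and was at 0 in 1 library. The 7 mural and smooth muscle markers summed to 39.7 to 82.2, 87.3 to 131 and 259 to 497 CPM in the same order. Most of that sum was Rgs5 (226 to 470 CPM in superficial cells), while Myh11, the smooth muscle myosin, was at 0 to 3.96 and Des, the muscle filament desmin, at 0.469 to 0.688. The 8 mesenchymal markers summed to 212 to 1021 CPM in basal and 236 to 1022 in superficial cells, against 15712 to 51370 in fibroblasts. The part of these markers in the layer results was not tested.

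The second comparison set cells with high cell cycle scores against the remaining basal or intermediate cells. The cycling classes are ranges on that score and lay in part in other sub-clusters than their comparators, with 56.7% of cycling basal cells in the cycling sub-cluster rich in basal cells and 28.6% in the main basal one. In cycling basal cells 0 of the 20 sterol genes were higher and 4 lower than in basal cells, and 0 of the 12 fatty acid genes were higher and 5 lower (9% of all genes were called higher and 10.8% lower). The medians were -0.34 and -0.35 on the log2 scale, beside -0.09 for all genes. Cyp51 stood at 5.75 to 33.3 CPM (median 13.8) in cycling and 16.3 to 50.1 (median 26.5) in non-cycling basal cells, lower in 6 of 6 libraries by a log2 fold change of -1.13 ± 0.26 (adjusted p 0.0019). Dhcr7 was detected at 0 to 11.1 CPM against 12.4 to 29.0, ranges that did not overlap (-0.98 ± 0.26), and Mvd (-0.93 ± 0.21) and Srebf2 (-0.41 ± 0.11) were the other sterol calls. In cycling basal cells Dhcr7 went down to 0 UMIs in a library, Cyp51 to 2 and Mvd to 3. Scd1 (-1.27 ± 0.38), Fasn (-0.53 ± 0.15), Fads1 (-0.52 ± 0.12), Scd2 (-0.43 ± 0.10) and Acsl3 (-0.34 ± 0.11) were the fatty acid calls. Of these, Scd1 was near the floor, at 0 to 5.67 CPM (0 to 10 UMIs in a library) in cycling and 4.64 to 15.8 CPM in non-cycling basal cells. These calls leaned on acute library 1, which held 603 of the 1109 cycling basal cells. Without it 0 sterol genes and 1 fatty acid gene were called lower (2.8% of all genes), and without chronic library 2 the fatty acid count was 3 (6.74%). Of all genes called in this comparison 45.4% were higher, against 58.3% with RLE size factors, 59.0% with DESeq2 and 65.4% without acute library 1.

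In cycling luminal cells 8 sterol genes were higher and 1 lower than in intermediate cells (17.9% and 23.7% of all genes), with a median of 0.18 beside -0.05 for all genes, and 2 fatty acid genes were higher and 5 lower. The sterol mean of log2(CPM + 1) was above that of intermediate cells in 5 libraries and below it in healthy library 1 (5.58 against 5.65). Acat2 measured 21.2 to 53.9 CPM (median 39.1) in cycling luminal and 15.5 to 30.4 (median 23.4) in intermediate cells, higher in 6 of 6 libraries by 0.86 ± 0.11 (adjusted p 1.30e-07). Fdps (0.68 ± 0.11) and Nsdhl (0.65 ± 0.11) were also higher in 6 of 6 libraries. Insig1 (0.56 ± 0.16), Pmvk (0.46 ± 0.10), Mvk (0.44 ± 0.09), Idi1 (0.40 ± 0.14) and Ebp (0.36 ± 0.10) made up the rest. Of these, Insig1 and Idi1 lost their calls without acute library 2 (adjusted p 0.116 and 0.21) and Idi1 also without acute library 1 (0.0625). Srebf2 was lower (-0.34 ± 0.08). Elovl6 (0.70 ± 0.13) and Elovl1 (0.35 ± 0.10) were the fatty acid genes that rose, while Fads1 (-0.62 ± 0.10), Acsl3 (-0.53 ± 0.09), Srebf1 (-0.47 ± 0.08), Acsl4 (-0.35 ± 0.09) and Scd2 (-0.34 ± 0.09) were lower. Of the cycling luminal cells 27.6% came from the cycling sub-cluster with superficial markers, 12.4% from the basal-rich cycling sub-cluster, 10.5% from the superficial sub-cluster and the rest from other sub-clusters, so the class was set against superficial cells as well, in a comparison added after these shares had been seen. There 1 sterol gene was higher (Stard4, 1.37 ± 0.29) and 17 lower (21.1% and 20.9% of all genes), with a median of -0.70 beside -0.01 for all genes, and 1 fatty acid gene was higher (Fads1, 0.52 ± 0.10) and 7 lower.

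Of the other pathway genes, Lbr, which carries a sterol reductase domain and belongs to the cell cycle list used to call cycling cells, was higher in cycling than in non-cycling basal cells (1.5 ± 0.17) and in cycling luminal than in intermediate cells (1.10 ± 0.12). Acss2 was lower in both comparisons (-0.89 ± 0.28 and -0.91 ± 0.12), as was Ppara, a transcription factor of fatty acid oxidation (-0.88 ± 0.30 and -0.72 ± 0.17). Npc1, which exports cholesterol from lysosomes, was lower in cycling luminal cells (-0.85 ± 0.11), and Elovl4, which elongates very long chains, in cycling basal cells (-0.85 ± 0.23). The fatty acid oxidation list had 0 genes higher and 6 lower of 11 in cycling basal cells (9% and 10.8% of all genes) and 1 higher and 5 lower in cycling luminal cells (17.9% and 23.7%).

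The third comparison set the stroma against the urothelium. Sterol genes were lower in stromal cells, with 0 of 20 higher and 18 lower than in non-cycling urothelium in the mean of fibroblasts and myofibroblasts (32.5% of the 11629 genes tested were called higher and 45.2% lower). Of the 12 fatty acid genes 1 was higher and 11 lower. The medians were -1.83 and -1.32 on the log2 scale, beside -0.18 for all genes, a figure that lay between -0.05 and -0.03 with RLE factors, DESeq2 or called doublets kept. The mean of log2(CPM + 1) over the sterol genes was 4.2 ± 0.36 in fibroblasts and 3.99 ± 0.39 in myofibroblasts against 5.65 ± 0.18 in non-cycling urothelium, lower in 6 of 6 libraries for either class. Droplet libraries carry free RNA, and the 11 urothelial markers, which stromal cells should lack, summed in stromal classes to 4.94 to 26.2% of their level in the urothelium of the same library. The median over libraries of the share a member reached was above 26.2% for 14 sterol and 9 fatty acid genes in fibroblasts and for 11 and 8 in myofibroblasts, and within the marker range for the rest.

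Scd1 was the member called higher in stroma. It measured 33.6 to 135 CPM (median 61.7) in fibroblasts and 28.3 to 140 (median 49.4) in myofibroblasts, against 4.64 to 25.1 over the 3 urothelial layers, and its median level was 567% and 464% of that of the urothelium (log2 fold change 2.48 ± 0.21, adjusted p 3.88e-09). Every stromal value lay above every urothelial value. Its relative Scd2 ran the other way, at 112 to 211 CPM in fibroblasts and 137 to 286 in myofibroblasts, lower by -1.13 ± 0.09. Scd1 (chr19:44394455-44407879, minus strand) and Scd2 (chr19:44293674-44306864, plus strand, both mm10) are close relatives, and how reads that match both were counted was not checked. The 2 adipocyte markers listed summed to 37.9 to 616 CPM in fibroblasts, 54.3 to 596 in myofibroblasts and 188 to 1125 in urothelium. This was nearly all Fabp4, which was high in superficial cells too, and Cidec reached at most 0.328 CPM in fibroblasts and 1.13 in myofibroblasts. The part of adipocytes in the level of Scd1 was not tested.

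Insig1 and Ebp were the sterol genes not called in the mean of both stromal classes. Insig1 had 35.7 to 67.2 CPM (median 42.4) in fibroblasts, 10.2 to 62.9 (median 25.8) in myofibroblasts and a log2 difference of 0.03 ± 0.13 from the urothelium (adjusted p 0.848). That mean joins fibroblasts at 101 to 176% of the urothelial level (median 137%), above it in 6 of 6 libraries, and myofibroblasts at 49.7 to 107% (median 72.5%). Ebp had 20.2 to 71.2 (median 60.2) and 45.3 to 63.2 (median 55.6) with a difference of -0.15 ± 0.11 (adjusted p 0.215). The largest deficits were those of Acsl3 (-2.91 ± 0.18), Sqle (-2.90 ± 0.17), Msmo1 (-2.53 ± 0.16), Idi1 (-2.49 ± 0.16) and Elovl6 (-2.42 ± 0.16). Sqle reached 4.95 to 18.5 CPM in fibroblasts and 3.32 to 20.02 in myofibroblasts, which is 3.99 to 26.6% of the urothelium of the same library and so within the range of the urothelial markers at its median (16.1% and 11.6%). Mvk (-0.68 ± 0.10), Acaca (-0.63 ± 0.12), Pmvk (-0.61 ± 0.13) and Acsl4 (-0.54 ± 0.09) showed smaller deficits. The calls of Stard4 (-0.58 ± 0.23, adjusted p 0.0267) and Elovl1 (-0.31 ± 0.12, adjusted p 0.0211) were each lost without healthy library 2 or either acute library (adjusted p 0.0669 to 0.15 for Stard4 and 0.052 to 0.107 for Elovl1), and that of Elovl1 also without either chronic library (0.0694 and 0.156).

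**Figure D4:**
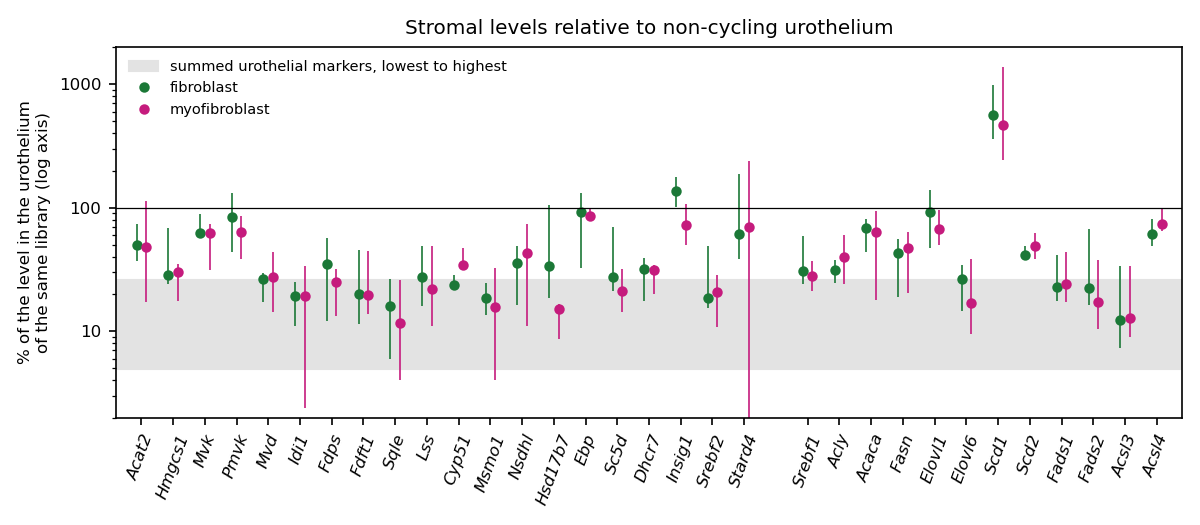
Level of each member (x axis) in fibroblasts (green) and myofibroblasts (pink) as a percent of its level in the non-cycling urothelium of the same library (y axis, log scale), with the median as a point and a line from the lowest to the highest of 6 libraries. Lines are drawn from 2% upwards, although Stard4 was at 0 in 1 or more myofibroblast libraries, and the grey band spans the summed urothelial markers, 4.94 to 26.2%. Scd1 lies at 567% and 464%, and most other members lie below the line at 100%.

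The stromal classes were also set against each other. Between myofibroblasts and fibroblasts 1 sterol gene was called higher (Cyp51, 0.46 ± 0.14, adjusted p 0.0392) and 2 lower (8.33% and 7.43% of all genes), and 1 fatty acid gene was higher (Acly, 0.48 ± 0.15, adjusted p 0.0403) and 0 lower. Hsd17b7 stood at 5.77 to 40.3 CPM in fibroblasts and 2.26 to 5.72 in myofibroblasts, ranges that nearly met (-1.26 ± 0.27, adjusted p 0.00321). The value of 40.3 was that of chronic library 2, and the other fibroblast values reached at most 10.9. Counts went down to 6 UMIs in a fibroblast library and 1 in a myofibroblast library. The call of Hsd17b7 was lost without acute library 2 (-1.08, adjusted p 0.0672). Insig1 was lower by -0.85 ± 0.18 (adjusted p 0.00239). Cyp51 lost its call without any of 5 libraries (adjusted p 0.059 to 0.186, all but chronic library 1) and Acly without any of the healthy or acute libraries (0.0558 to 0.225). Of the other pathway genes, Soat1, which esterifies cholesterol for storage, measured 31.7 to 67.2 CPM in fibroblasts, 28.4 to 53.2 in myofibroblasts and 1.11 to 2.72 in urothelium (4.63 ± 0.15), while Elovl7 (-3.82 ± 0.26) and Elovl4 (-3.11 ± 0.17) were lower in stroma. All 11 fatty acid oxidation genes and 11 of the 13 further fatty acid synthesis genes were lower in stroma than in urothelium (45.2% of all genes), whereas 6 of the 10 genes of sterol uptake, storage and efflux were higher and 3 lower (32.5% and 45.2%). Between the stromal classes, Nr1h3, which encodes the sterol sensor LXR alpha (-1.83 ± 0.22), was lower in myofibroblasts, and Scarb1, a receptor for high-density lipoprotein (0.96 ± 0.21), and Mylip, a ubiquitin ligase (0.95 ± 0.19), were higher.

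The fourth question was what CPP injury changed within a cell class. With 2 libraries per condition, 0 of the 32 members passed the threshold in any of 15 comparisons (acute or chronic against healthy, and acute against chronic, in 5 classes) by edgeR. Over all genes there were also 0 calls except in fibroblasts (9 genes after acute and 7 after chronic injury, 0.081% and 0.063% of those tested) and myofibroblasts (1 after acute injury, 0.0123%). At an unadjusted p below 0.05, taking acute against healthy, chronic against healthy and acute against chronic in that order, the members numbered 0, 0 and 1 of 32 in basal cells (2.12%, 4.09% and 2.86% of all genes). They numbered 0, 0 and 1 in intermediate cells (2.4%, 4.77% and 4.12%) and 1, 3 and 2 in superficial cells (5.43%, 6.47% and 3.91%). In fibroblasts they numbered 3, 4 and 5 of the 31 tested (3.77%, 6.38% and 4.87%), and in myofibroblasts 4, 2 and 7 of the 26 tested (3.06%, 7.47% and 9.9%). DESeq2 called 1 member lower, Fads1, in superficial cells after either injury (0.124% of all genes after acute and 0.168% after chronic injury). A value that missed the threshold here is not shown to be equal between conditions.

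Fads1 had the clearest separation of conditions in superficial cells. It stood at 137 and 118 CPM in the healthy libraries, 59.9 and 63.0 after acute and 61.9 and 60.2 after chronic injury. The log2 fold changes of -1.06 ± 0.22 and -1.07 ± 0.22 had adjusted p 0.425 and 0.382 by edgeR, and 0.0183 and 0.0178 by DESeq2. In basal cells it was at 214 and 214 CPM in the healthy libraries, 161 and 131 after acute and 143 and 156 after chronic injury, and in intermediate cells at 211 and 217, 181 and 138, and 150 and 158. In all 3 layers the 4 injured libraries lay below the healthy ones, as did those of 6.04% of all genes in basal, 5.09% in intermediate and 7.47% in superficial cells.

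After injury the sterol genes gave the following values, none of which passed the test gene by gene. In basal cells the median log2 difference after acute injury was -0.41, with 17 of 20 genes below 0, beside -0.02 for all genes, and for 8 genes both acute libraries lay below both healthy ones (15.2% of all genes). After chronic injury the basal median was -0.07, with 8 genes above and 12 below 0, beside -0.03 for all genes, and both chronic libraries lay above both healthy ones for 2 genes and below for 2 (12.8% and 18% of all genes). In intermediate cells the median was -0.26 after acute injury, with 18 of 20 below 0, and -0.01 after chronic injury, beside -0.01 and 0.01 for all genes. The acute value rested on acute library 2, since the sterol mean of log2(CPM + 1) was 5.65 and 5.42 in healthy and 5.55 and 5.02 in acute intermediate cells, and the difference of these means was 0.0186 without that library. In superficial cells it was 0.17 after acute injury, with 16 of 20 above 0, and 0.37 after chronic injury, with 18 of 20 above 0, beside 0.01 and 0.02 for all genes. For 13 of the 20 both chronic superficial libraries lay above both healthy ones (18.6% of all genes), and for 6 both acute ones did (17.1%). Insig1 was at 49.2 and 48.97 CPM in healthy, 70.5 and 51.3 in acute and 73.5 and 119 in chronic superficial cells. Fdps was at 229 and 228, 254 and 265, and 323 and 293. The sterol genes Acat2, Ebp, Fdps, Insig1 and Mvk were above both healthy values in all 4 injured superficial libraries (8.66% of all genes), and the fatty acid genes Fads1 and Scd2 were below (7.47%). The steps were small. The sterol mean of log2(CPM + 1) in superficial cells was 6.01 and 6.26 in healthy, 6.37 and 6.198 in acute and 6.48 and 6.43 in chronic libraries, so that the 2 healthy libraries lay further apart than the healthy and acute means (6.13 and 6.28). The fatty acid genes had medians below 0 after acute injury in all 5 classes, at -0.32 in basal, -0.28 in intermediate and -0.20 in superficial cells, -0.25 in fibroblasts and -0.36 in myofibroblasts, and for 8 of the 12 both acute basal libraries lay below both healthy ones. The difference of the fatty acid means was -0.30 in basal, -0.24 in intermediate and -0.19 in superficial cells, and -0.14, -0.0738 and -0.0797 without acute library 2. After chronic injury their medians lay between -0.10 and 0.07.

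Whether injury acted differently on the layers was tested directly, as the difference between the superficial and the basal response. After acute injury this difference was above 0 for 20 of 20 sterol genes, with a median of 0.55 beside 0.02 for all genes, and 0 were called (0.206% of the 12134 genes tested were called higher and 0.346% lower). After chronic injury it was above 0 for 17 of 20, with a median of 0.43 beside 0.02, and 0 were called (0.0494% and 0.115%). Idi1 was the nearest after acute injury. It stood in basal cells at 59.5 and 30.9 CPM in healthy and 30.4 and 23.6 in acute libraries, and in superficial cells at 87.9 and 91.1 and at 125 and 107, a difference of 1.11 ± 0.29 (adjusted p 0.0871). Of the fatty acid genes, Elovl6 was called after acute injury. It went from 62.2 and 71.5 CPM to 52.8 and 35.8 in basal and from 131 and 215 to 241 and 177 in superficial cells, where healthy and acute libraries overlapped, and the difference was 0.91 ± 0.20 (adjusted p 0.0363). Healthy library 2 weighed on these counts. Without it 5 sterol genes (Cyp51, Msmo1, Insig1, Idi1 and Hmgcs1) and 2 fatty acid genes (Elovl1 and Elovl6) were called higher after acute injury (1.11% of all genes), and 3 (Insig1, Idi1 and Hmgcs1) and 2 (Elovl1 and Elovl6) after chronic injury (0.578%). Without any of the other 5 libraries 0 members were called. In that fit the remaining healthy library stands alone and is assumed to vary as the other libraries do. Plin2, a coat protein of lipid droplets, was the pathway gene called, with differences of -0.91 ± 0.19 after acute and -0.98 ± 0.19 after chronic injury (adjusted p 0.0294 and 0.0366).

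**Figure D5:**
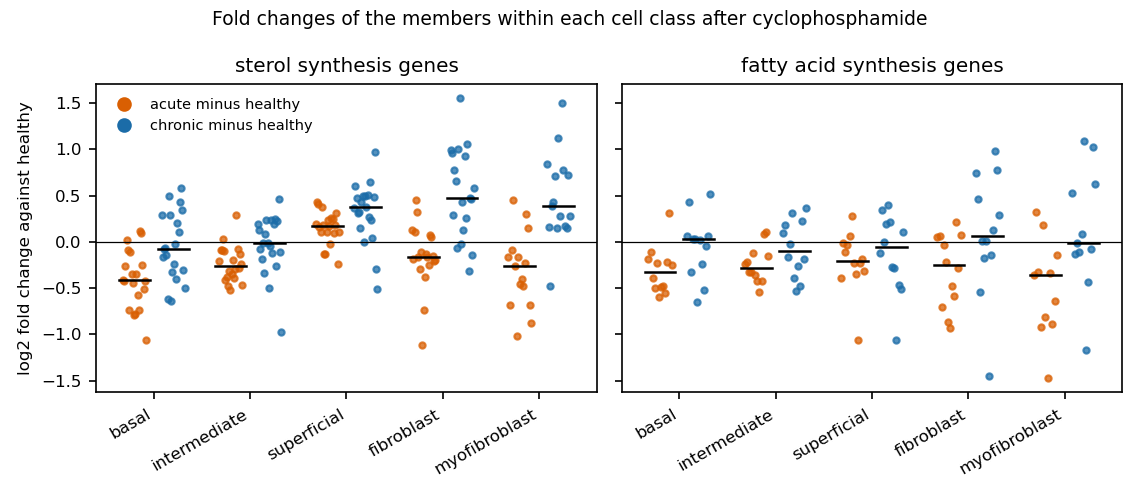
Log2 fold change against healthy (y axis) of each tested sterol gene (left) and fatty acid gene (right) in 5 cell classes (x axis) after acute (orange) and chronic injury (blue), from the edgeR fits with 2 libraries per condition, with the median of the genes as a bar. The sterol medians are -0.41 for acute basal and 0.37 for chronic superficial cells, and 0 of the points has an adjusted p below 0.05.

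In stromal cells 0 sterol genes were called after injury either. In fibroblasts, where 19 of the 20 passed the filter on low counts, the median after chronic injury was 0.47 and that of acute against chronic -0.62, beside -0.03 and 0.03 for all genes. In acute against chronic fibroblasts both acute libraries lay below both chronic ones for 15 of the 20 (16.5% of all genes tested). For 12 of the 20 both chronic libraries lay above both healthy ones (17.6% of all genes). Several of these rested on few molecules. Mvd, Nsdhl and Lss went down to 2 UMIs in a fibroblast library, Acat2 to 3, and Fdft1 and Msmo1 to 7. Fdft1 stood at 10.5 and 12.9 CPM in healthy, 8.25 and 12.5 in acute and 30.4 and 47.1 in chronic fibroblasts (1.55 ± 0.41 for chronic against healthy, adjusted p 0.567), and Msmo1 at 19.7 and 26.4, 22.3 and 20.2, and 42.8 and 47.1. In myofibroblasts, where 15 of the 20 were tested, the median of acute against chronic was -0.84, with 11 genes below and 4 above 0, beside 0.12 for all genes, and both acute libraries lay below both chronic ones for 11 of the 20 (15.6%). Msmo1 there stood at 21.6 and 19.3, 6.65 and 18.4, and 56.8 and 60.1 CPM. The urothelial markers moved with this difference. Their sum in fibroblasts was 5.86 and 19.1% of the urothelial level in healthy, 4.94 and 14.5% in acute and 19.6 and 26.2% in chronic libraries, and in myofibroblasts 5.92 and 18.5%, 5.24 and 11.9%, and 23.6 and 15.6%, and their part in the result was not tested. Chronic library 2 had 35 fibroblasts and chronic library 1 had 81 myofibroblasts, the fewest of any library.

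Scd1, the member called higher in stroma, passed no injury test in the stromal classes. In fibroblasts it stood at 135 and 99.6 CPM in healthy, 61.0 and 62.4 in acute and 46.6 and 33.6 in chronic libraries, and in myofibroblasts at 79.8 and 140, 28.3 and 46.7, and 52.1 and 45.8. All 4 injured values lay below both healthy values in either class, as did those of 7.94% of all genes in fibroblasts and 5.29% in myofibroblasts. The log2 differences in fibroblasts were -0.93 ± 0.32 and -1.45 ± 0.35 (adjusted p 0.963 and 0.498), and in myofibroblasts -1.47 ± 0.39 and -1.16 ± 0.43 (adjusted p 1.00 and 0.631). The part of the urothelial markers, which were higher in the chronic fibroblast libraries, in this difference was not tested. Acaca was below healthy in all 4 injured libraries in basal, intermediate and fibroblast cells, as were 6.04%, 5.09% and 7.94% of all genes. Its log2 differences ran from -0.71 ± 0.34 (acute fibroblasts) to -0.17 ± 0.25 (chronic intermediate cells). Lss (basal and intermediate) and Elovl6 (basal) also lay below both healthy values in all 4. Ebp (intermediate cells and myofibroblasts), Fads2 (myofibroblasts), Mvd and Pmvk (fibroblasts) lay above both. The share of all genes above is not given for these classes. Some of these members had few counts. Fads2 went down to 1 UMI in a myofibroblast library, and Mvd to 2 and Acaca to 3 in a fibroblast library.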

How the data were processed

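Cells of the bladder mucosa were profiled with droplet-based 3′ single-cell RNA-seq. The authors aligned reads to mm10 and counted UMIs with Cell Ranger. The deposited tables hold raw UMI counts per gene and cell, 1 table per library. Their floors differed. The fewest genes in a cell were 199 and 295 in the healthy, 919 and 298 in the acute and 806 and 954 in the chronic tables. A listed gene was in at least 8 cells in healthy library 1 and 6 in acute library 1, against 1 in the others. The filter of 500 genes could therefore keep cells with fewer genes in healthy than in chronic libraries. The stricter cell filters (over 1000 genes, under 5% mitochondrial UMIs) set a common floor above those of all tables. What they moved in the injury results is given below. They changed the mitochondrial limit as well, so the part of the gene floor alone was not tested. The last line of the healthy library 1 table was incomplete and was left out, and acute library 2 listed a newer gene set, so that the 14450 genes in all 6 tables were used, or 14338 without mitochondrial and ribosomal genes. The healthy, acute and chronic groups came from the GEO labels. The labels do not say that libraries came from separate animals throughout, so p-values measure only the spread between these libraries.

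Cells with at least 500 genes and at most 10% mitochondrial UMIs were kept and the cells with the highest Scrublet scores (0.8% of cells per 1000 cells of the library) were removed as doublets. Libraries were normalised with sctransform 0.4.2 and integrated in Seurat 5.3.0 (R 4.3.3) on features without the 32 genes and the pathway genes, and clustered with leidenalg 0.10.2 in scanpy 1.11.5. Clusters were named from fixed marker lists. The rules for the superficial class and for a mixed sub-cluster were settled after clusters had been seen. The mixed urothelial sub-cluster stayed in the main classes (8.48% of intermediate and 5.63% of basal cells). Its leading genes were headed by Slc39a1 and Abhd2 and included Car3 and Cxcl14. The study describes Abhd2 as selective for a superficial cluster, and whether these cells match it was not tested. The mixed sub-cluster held 1.05% of urothelial cells in healthy library 2 and 15.0% in acute library 2. In a further alternative without it, no count of members moved beyond 1.5 times. There 3 single results gained and 1 lost a call. UMIs were summed per library and class (at least 20 cells) and tested in edgeR 4.0.16 (TMM factors, filterByExpr, quasi-likelihood F-test, Benjamini-Hochberg over all genes tested), with the library as block for layers, cycling and stroma. With 2 libraries a condition, a call within a class rests on few degrees of freedom. Levels are CPM after TMM scaling. Scripts were tested on simulated data. The members and all lists were chosen with earlier results of these data known. All 32 members are described, and of the other pathway genes up to 4 per comparison were named, those with the largest absolute log2 fold change among genes with an adjusted p below 0.05 and a mean of at least 5 CPM. Some of these are not reported here. Alternatives were DESeq2 1.42.0, RLE factors, no filter, stricter cell filters (over 1000 genes, under 5% mitochondrial UMIs), doublets kept, a cycling threshold of 4 MADs, no integration, a pseudocount of 10, a replicate block and leaving out each library. Errors are the SE of the fit or the SD over libraries.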

Additional observations from a re-analysis of the deposited data

Results flagged for a closer look

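Elovl6, the elongase of saturated chains, was the member whose response to acute injury differed between superficial and basal cells by a test of the difference itself, with a log2 difference of responses of 0.91 (SE 0.20, edgeR adjusted p 0.0363, 2 libraries per condition). It was lower in both acute basal libraries (52.8 and 35.8 CPM against 62.2 and 71.5) and overlapped with healthy in superficial cells (241 and 177 against 131 and 215). The difference was 0.28 (adjusted p 0.602) when cells were clustered without integration, and its call was lost without any 1 of 5 libraries (adjusted p 0.0862 to 0.334) and held without healthy library 2.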

How the results depend on the processing

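No member reversed direction among called results. The counts of members below are given without the share of all genes called in the same setting. A shift in them can therefore not be told apart here from a shift in all calls. Changes beyond 1.5 times in the counts of members called, or beyond the spread in module means, were as follows. DESeq2 called 2 sterol genes higher in cycling basal cells, 0 sterol and 2 fatty acid genes higher in myofibroblasts than fibroblasts, and 1 fatty acid gene lower in superficial cells after acute and 1 after chronic injury. RLE factors gave 1 sterol gene higher in cycling basal cells. Without integration, 0 sterol genes were lower in superficial than intermediate cells, 4 fatty acid genes were higher in cycling luminal than superficial cells, 0 sterol genes were higher and 1 lower and 0 fatty acid genes higher and 1 lower in myofibroblasts than fibroblasts, and 0 fatty acid genes differed by layer after acute injury (chronic library 1 had too few myofibroblasts to enter that fit). A cycling threshold of 4 MADs gave 2 sterol genes higher and 7 lower, and 9 fatty acid genes lower, in cycling basal cells. With doublets kept, 0 sterol and 0 fatty acid genes were higher in myofibroblasts than fibroblasts, and likewise 0 and 0 with the stricter cell filters. With no filter on low counts, 1 sterol gene (Idi1) differed by layer after acute injury, 1 fatty acid gene (Scd1) was lower after acute injury in myofibroblasts, and 1 sterol gene (Msmo1) was lower in acute than chronic myofibroblasts. The stricter cell filters gave 3 sterol genes by layer after acute injury, and 1 sterol and 1 fatty acid gene after chronic injury. They moved the superficial sterol mean to 0.28 above healthy after acute and 0.46 after chronic injury, and the fatty acid mean to -0.083 and 0.000916. With a pseudocount of 10 the sterol mean differed from urothelium by -1.09 in fibroblasts, -1.21 in myofibroblasts and -1.15 in their mean, and between acute and chronic by -0.47 in fibroblasts and -0.50 in myofibroblasts. The fatty acid mean was then -0.30 in cycling basal against basal cells, and -0.97 in fibroblasts, myofibroblasts and their mean against urothelium. The causes were not tested.

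Leaving out each library in turn gave these ranges, with counts again given without the share of all genes called in each fit. The sterol count lower in intermediate than basal cells was 0 to 1. In cycling basal cells 0 to 1 sterol genes were higher, 0 to 6 lower, and 1 to 7 fatty acid genes lower. In myofibroblasts against fibroblasts 0 to 1 sterol genes were higher, 1 to 2 lower, and 0 to 1 fatty acid genes higher and 0 to 1 lower. By layer after acute injury 0 to 5 sterol and 0 to 2 fatty acid genes were higher, and after chronic injury 0 to 3 and 0 to 2. The sterol mean ranged from -0.51 to 0.0186 (intermediate, acute against healthy), -0.49 to 0.0454 (intermediate, acute against chronic), 0.0198 to 0.28 and 0.19 to 0.45 (superficial, acute and chronic against healthy), and 0.35 to 0.76 and -0.92 to -0.51 (fibroblasts, chronic against healthy and acute against chronic). The fatty acid mean ranged from -0.45 to -0.14 and -0.38 to -0.0811 (basal, acute against healthy and against chronic), -0.41 to -0.0738 and -0.34 to -0.00932 (intermediate, the same), -0.31 to -0.0797 and -0.21 to 0.0188 (superficial, the same), and -0.0749 to 0.32 and -0.67 to -0.28 (myofibroblasts, chronic against healthy and acute against chronic). Where a condition kept 1 library, that library is assumed to vary as the others do.

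Libraries with the same replicate number in different conditions did not deviate together throughout (correlations of deviations from the group means 0.14 to 0.42 for healthy with acute, -0.37 to 0.02 for healthy with chronic and -0.21 to -0.05 for acute with chronic), so the numbers were not taken to pair the libraries, although healthy and acute libraries of the same number did deviate together in all 5 classes. A fit with the replicate number as block called 0 members in any injury comparison within a class, as the fit without it did. Depth limits the stromal results of chronic injury, with 35 fibroblasts and 96 myofibroblasts in chronic library 2 and 81 myofibroblasts in chronic library 1.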
